A study of Mus musculus with 12 samples.

Results

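The genes of GABA and glycine signalling were followed in ANS cells, adherent neural stem cells from embryonic mouse brain, before and during differentiation in culture. The 28 genes were listed by symbol, and all 28 were found among the 22609 genes of the count tables. They encode 10 subunits of GABA-A receptors, 2 of GABA-B receptors, 4 of glycine receptors, 1 receptor scaffold, 2 enzymes of GABA synthesis, 2 of GABA breakdown, 2 GABA transporters, 2 glycine transporters, 1 vesicular transporter and 2 chloride transporters.

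The T0 group held 3 libraries of proliferating cells in complete growth medium, with 20 ng/ml FGF2 and 20 ng/ml EGF. T1 held 3 libraries made 2 days after the change to medium D1, with 10 ng/ml FGF and 2 ng/ml EGF. T2 held 4 libraries made 2 days after the change to medium B, which contained 10 ng/ml FGF-2 and 20 ng/ml BDNF and no added EGF. T3 held 2 libraries made 10 days after that change, labelled overt differentiation and GAD+. All cells came from embryos of day E14.5, and they were dissociated and plated again on laminin before medium B, so medium, time and plating changed together. Column names of the deposited FPKM table mark every library as wt, and the sample labels name no genotype or cell sorting. The study calls the libraries biological and independent replicates and does not say what was separate between them, so p-values measure only the spread between these libraries.

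GABA is made from glutamate by the glutamate decarboxylases, packed into vesicles by the transporter encoded by Slc32a1, taken up by plasma membrane transporters and broken down in mitochondria. GABA-A and glycine receptors are chloride channels, so the effect of opening them depends on cotransporters that import or export chloride, and GABA-B receptors act through G proteins. Neurons and glia both express parts of this set: uptake, breakdown and GABA-B receptors are well known in astrocytes, and GABA-A receptors in oligodendrocyte precursors.

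Counts on genes ranged from 8910724 to 16631614 per library, with a median of 12601169. T0 replicate 3 stood apart from its group, with a median absolute log2 difference per gene of 0.458 and 0.452 from T0 replicates 1 and 2, which differed from each other by 0.0893. The 2 T3 libraries differed by 0.289. Values without T0 replicate 3 are therefore also given for the 13 tested genes, in the text or the plot of fold changes. In cell type markers, the summed level of 8 pan-neuronal genes, 7 of them detected, was 893 to 965 CPM (counts scaled to library size) at T0, 2040 to 2580 at T1, 2000 to 2550 at T2 and 1680 to 2710 at T3. Most of this sum was 1 gene, Mtap2, at 879 to 921 CPM at T0 and 1650 to 2170 at T1. Of the 5 pan-neuronal genes tested at T1, 4 were called higher, with 15.1% of all genes, and 0 lower. At T2 6 of 6 were higher, with 21.4% of all genes, and at T3 2 of 7, with 3.31%. The summed level of 9 astrocyte genes, 9 of them detected, was 5040 to 5350 CPM at T0, 5050 to 6280 at T1, 4300 to 6120 at T2 and 4280 to 4860 at T3. That of 10 oligodendrocyte lineage genes, 9 of them detected, was 3540 to 3810 CPM at T0, 4470 to 4650 at T1, 4320 to 4920 at T2 and 5380 to 6290 at T3. That of 7 neural progenitor genes was 5210 to 6080 CPM at T0, 4120 to 4920 at T1, 3780 to 3850 at T2 and 3680 to 4280 at T3. Of 14 markers of inhibitory neurons and their precursors, 6 exceeded 3 counts in a library, while Dlx5, Gsx2 and Npy were at 0 everywhere and Dlx6, Sp8, Sst, Calb1 and Pvalb never exceeded 3 counts. The summed level of these 14 was 90.3 to 102 CPM at T0, 102 to 114 at T1, 99.2 to 110 at T2 and 97.7 to 134 at T3. Of 7 glutamatergic markers, 4 exceeded 3 counts in a library, while Slc17a6 and Emx1 were at 0 everywhere. The summed level of these 7 was 13.3 to 15.3 CPM at T0, 11.8 to 13.2 at T1, 11.7 to 14.3 at T2 and 14.3 to 16 at T3. Of the oligodendrocyte lineage genes tested, 1 of 7 was higher at T1 and 3 of 8 at T2, with 15.1% and 21.4% of all genes. Of the progenitor genes 2 of 7 were lower at T1 and 3 of 7 at T2, with 16.8% and 21.8%. Of the inhibitory markers tested, 1 of 4 was lower at T1, and of the astrocyte genes 2 of 9 were lower at T2. No other gene of these lists was called against T0. None of 6 microglial markers exceeded 3 counts. The part of neuronal or glial cells in the changes given here was not tested, and in these bulk samples fewer cells of a type and less RNA per cell cannot be told apart.

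Of the 28 genes, 13 had enough counts to be tested and 15 did not. The 13 were Gad1, Abat, Aldh5a1, Slc6a11, Gabra2, Gabrg1, Gabbr1, Gabbr2, Gphn, Glrb, Slc6a9, Slc12a2 and Slc12a5, and the lowest count of any of them in any library was 11. The filter keeps a gene that is high in only 1 group, so the 13 are not a fair sample of the 28. The other 15 had at most 8 counts in any library, 12 of them at most 3 and 9 at most 1, and Gabrb1, Gabre, Glra2 and Glra3 had 0 counts in all 12 libraries. A count of 0 allows up to 3 counts, or 0.183 CPM in the deepest library and 0.323 CPM in the shallowest. These limits cover counting error only.

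**Figure D1:**
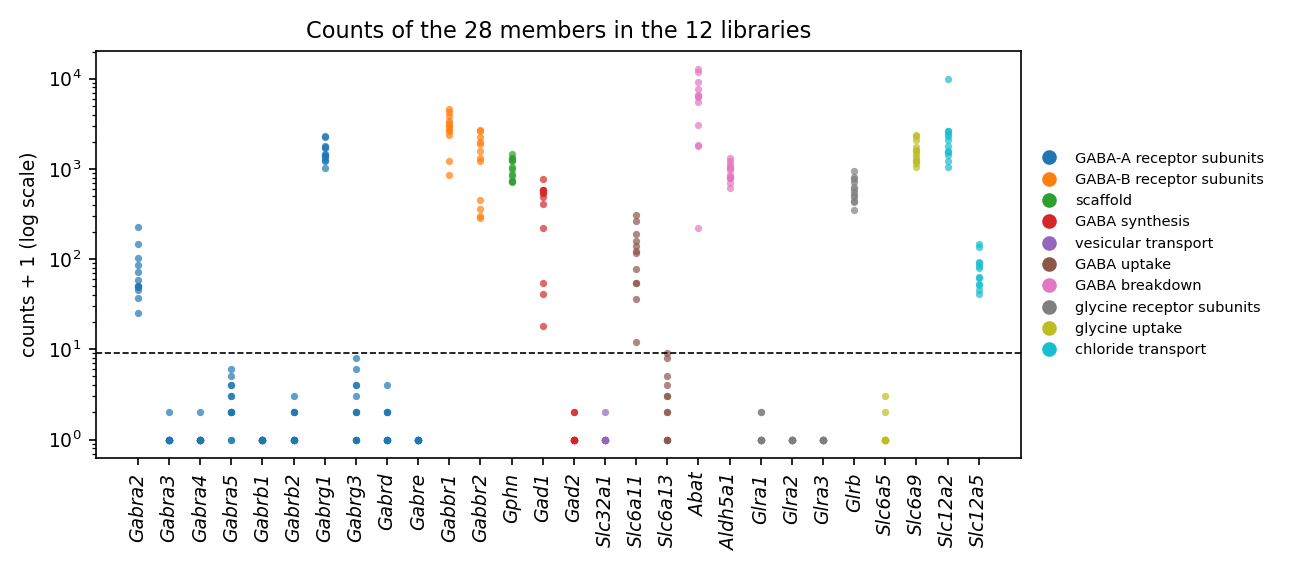
Counts plus 1 of each of the 28 genes (log axis), 1 point per library for the 12 libraries, coloured by role. The dashed line marks 8 counts, the highest value among the 15 genes that were not tested, and the 13 tested genes lie above it in every library.

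Among the 15 untested genes were Gad2, Slc32a1 and Slc6a5, genes of neurons that release GABA or glycine, while Gad1 was tested. Gad2, which encodes the decarboxylase GAD65, and Slc32a1, the vesicular transporter of both transmitters, had at most 1 count in any library, T3 included. Slc6a5, the glycine transporter of glycinergic nerve endings, had at most 2 counts. Among GABA-A subunits, Gabra3 and Gabra4 had at most 1 count, Gabrb2 at most 2, Gabrd at most 3, Gabra5 at most 5 and Gabrg3 at most 7. The glycine receptor subunit Glra1 had at most 1 count. Slc6a13, a GABA transporter known from meninges and liver, had at most 8 counts. Gabra5, Gabrg3 and Slc6a13 thus exceeded 3 counts in at least 1 library, and the other 12 did not. Changes of the 15 were not tested.

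Of the 13 tested genes, 6 were higher at T1 than at T0, and the same 6 genes were higher at T2: Gad1, Abat, Gabbr2, Slc6a11, Glrb and Gabrg1. At T1 this was 6 of 13, with 15.1% of all 12364 tested genes called higher, and at T2 it was 6 of 13 with 21.4% of 12607. In the lower direction 1 gene was called at T1, with 16.8% of all genes called lower, and 2 at T2, with 21.8%. At T3, 2 of 13 were higher with 3.31% of 12721, and 0 were lower with 1.41%. The 13 had a median log2 fold change of 0.6 in the T1 comparison, 0.69 in the T2 and 0.72 in the T3 comparison, and that of all genes tested was -0.008, 0.002 and -0.015. The 2 genes at T3 became 0 without T0 replicate 1 or T0 replicate 2, where 0.111% and 0.104% of all genes were called higher. They became 5 with DESeq2, which called 7.94% of all genes higher. The T3 calls were also lost without either T3 library, which leaves 1 library at T3. In 7 of the 13 genes every T1 library lay above every T0 library, with 28.6% of all genes, and in 3 below, with 28%. The numbers were 7 and 2 at T2, with 27% and 27.2% of all genes, and 6 and 1 at T3, with 24.3% and 25.8%. The 3 comparisons share the T0 libraries, so they are not independent of each other.

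The sequences before the start sites of 4 of the 6 higher genes are shown because these genes moved together from T0 to T1 and T2. They are 5′ to 3′ on the gene's own strand, from RefSeq (GRCm38.p6), and each matched NCBIM37, the sequence of the mm9 build used by the authors, exactly and once. Capitals mark the GC box, GGGCGG or CCGCCC, a motif bound by Sp factors, and the E-box CAGGTG or CACCTG. The cAMP response element TGACGTCA was also searched, and none of the 3 motifs overlapped another in the bases shown.
Gad1: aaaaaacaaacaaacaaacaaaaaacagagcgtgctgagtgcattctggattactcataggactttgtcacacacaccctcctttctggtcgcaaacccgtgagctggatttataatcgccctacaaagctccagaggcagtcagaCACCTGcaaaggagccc
Slc6a11: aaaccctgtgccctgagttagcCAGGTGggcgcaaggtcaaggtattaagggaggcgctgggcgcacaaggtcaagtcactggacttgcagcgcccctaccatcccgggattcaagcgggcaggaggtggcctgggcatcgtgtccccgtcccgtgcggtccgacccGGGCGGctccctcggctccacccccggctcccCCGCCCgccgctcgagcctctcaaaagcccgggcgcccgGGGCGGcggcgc
Glrb: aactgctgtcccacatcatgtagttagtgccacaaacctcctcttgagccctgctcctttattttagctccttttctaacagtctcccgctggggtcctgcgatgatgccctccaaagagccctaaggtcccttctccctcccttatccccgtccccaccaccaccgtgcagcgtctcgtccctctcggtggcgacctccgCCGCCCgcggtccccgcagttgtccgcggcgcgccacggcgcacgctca
Gabrg1: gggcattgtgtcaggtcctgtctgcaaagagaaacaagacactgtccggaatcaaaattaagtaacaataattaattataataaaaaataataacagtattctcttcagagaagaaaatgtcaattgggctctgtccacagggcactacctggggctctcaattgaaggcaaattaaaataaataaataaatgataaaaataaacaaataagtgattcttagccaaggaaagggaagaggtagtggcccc
The Gad1 stretch is chr2:70399936-70400098 on the plus strand, 163 bases that end 88 bases before the RefSeq start, where an annotated Gad1 exon begins. It lies inside the annotated bodies of Gad1 and 1500002O10Rik and outside exons. The Slc6a11 window is chr6:114080985-114081234 (plus strand), the Glrb window chr3:80717583-80717832 (minus) and the Gabrg1 window chr5:71233857-71234106 (minus). These 3 windows of 250 bases lie before the annotated genes and touch no GENCODE exon. Over the 250 bases before the start, Slc6a11 had 3 GC boxes and 1 E-box, Gad1 1 GC box and 1 E-box, Glrb 1 GC box and Gabbr2 2 GC boxes. Annotated exons covered 87 of these bases in Gad1 and 159 in Gabbr2. The GC box of Gad1 and the 2 GC boxes of Gabbr2 lay in those exon bases. Gabrg1 held none of the motifs, and its window was 35.6% G or C with 1 CG pair, while that of Gabbr2 was 80.8% G or C with 37 CG pairs and the median over all 32851 promoters was 52.4% with 6. A GC box occurred in 32.7% of all promoters, the E-box in 17.2% and the cAMP response element in 1.55%. A match is a description of letters and not evidence of a bound factor. Of the 28 genes 24 had a promoter entry.

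Gad1, which encodes GAD67, the decarboxylase that makes GABA (chromosome 2, 70391129 to 70440071), was the member with the largest rise. Its level was 4.05, 2.79 and 1.2 CPM in T0 replicates 1 to 3, 35.4, 40.1 and 32.8 at T1, 55.8, 54.1, 43.9 and 47.6 in T2 replicates 1 to 4, and 48.7 and 23.9 in T3 replicates 1 and 4. Every library after T0 lay above every T0 library. Gad1 stood 13.4-fold above T0 at T1 (3.75 on the log2 scale, SE 0.38, adjusted p = 0.00095 in edgeR). The difference reached 19-fold at T2 (4.25, SE 0.34, adjusted p = 8.9e-05 in edgeR) and 13.7-fold at T3 (3.77, SE 0.55, adjusted p = 0.028 in edgeR). Without T0 replicate 3 the log2 fold change at T1 was 3.40 and at T3 3.43 (adjusted p = 0.014 in edgeR). The T3 call was lost without T0 replicate 1 or 2, with log2 fold changes of 4.19 and 3.8 (adjusted p = 0.071 and 0.11 in edgeR). Those 2 fits called 0.111% and 0.104% of all genes higher. It was also lost without either T3 library, which leaves 1 library at T3. Gad1 has a pseudogene, Gad1-ps, listed at 0.0175 to 0.106 FPKM (fragments scaled to transcript length and depth) at T0 and 1.42 to 1.68 at T2, against 0.706 to 2.2 and 18.8 to 24 for Gad1, and reads that the 2 loci share could not be separated here.

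The enzymes of GABA breakdown behaved differently from each other. Abat encodes GABA transaminase, which converts GABA to succinic semialdehyde (chromosome 16, 8513522 to 8621661). Its level was 136, 128 and 15.4 CPM at T0, 659, 687 and 719 at T1, 534, 589, 596 and 783 at T2, and 528 and 327 at T3. All 9 later libraries exceeded the 3 T0 libraries, and T0 replicate 3 was the lowest of all. Abat was 7.37-fold higher at T1 (log2 fold change 2.88, SE 0.71, adjusted p = 0.022 in edgeR) and 6.79-fold at T2 (2.76, SE 0.63, adjusted p = 0.0088 in edgeR), and did not pass the threshold at T3 (2.21, SE 0.83, adjusted p = 0.16 in edgeR). The T1 call was lost without any 1 of the T1 libraries. Without T0 replicate 3 the log2 fold change was 2.38 at T1 (adjusted p = 1.4e-06 in edgeR) and 1.71 at T3 (adjusted p = 0.017 in edgeR). Aldh5a1, which oxidizes succinic semialdehyde to succinate in the next step (chromosome 13, 24997462 to 25033286), was at 43.7 to 80 CPM at T0, 74.1 to 79.2 at T1, 66.6 to 80.5 at T2 and 85 to 86.8 at T3, and passed no test, with log2 fold changes from T0 of 0.21, 0.19 and 0.41. Exons of Abat overlap those of Gm9851 and exons of Aldh5a1 those of 4932702P03Rik and 9330162012Rik, and the strand setting of the counting is not given in the sources used here.

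Slc6a11 encodes GAT-3, a GABA transporter best known from astrocytes (chromosome 6, 114081235 to 114199880), and its promoter is among those shown. It was at 3.98, 3.7 and 0.776 CPM at T0, 9.91, 11.8 and 16.2 at T1, 13.3, 7.13, 17 and 18.9 at T2, and 10.1 and 3.77 at T3. The T1 and T2 libraries lay above T0, while T3 replicate 4 fell inside the T0 range. The log2 fold change was 2.16 at T1 (SE 0.53, adjusted p = 0.022 in edgeR), 2.34 at T2 (SE 0.53, adjusted p = 0.0084 in edgeR) and 1.32 at T3 (SE 0.75, adjusted p = 0.31 in edgeR). It was 1.73 at T1 without T0 replicate 3, and the T1 call was lost without any 1 of the T1 libraries.

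GABA-B receptors are pairs of the GABA-binding subunit Gabbr1 and the G protein-coupling subunit Gabbr2, and only Gabbr2 was called with all libraries. Gabbr2 (chromosome 4, 46675190 to 47004745) was at 26.8, 31.7 and 20.2 CPM at T0, 163, 198 and 137 at T1, 127, 145, 181 and 167 at T2, and 104 and 32.5 at T3. All later libraries were above T0, but T3 replicate 4 by little. The rise was 6.32-fold at T1 (log2 fold change 2.66, SE 0.21, adjusted p = 0.00051 in edgeR) and 5.98-fold at T2 (2.58, SE 0.19, adjusted p = 7.5e-05 in edgeR), and 1.39 on the log2 scale at T3 (SE 0.48, adjusted p = 0.14 in edgeR). Both calls held when any 1 library was left out.

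Gabbr1 (chromosome 17, 37182911 to 37212012) was at 232, 204 and 59.8 CPM at T0, 276, 289 and 283 at T1, 255, 248, 305 and 263 at T2, and 199 and 130 at T3. The T1 and T2 libraries exceeded T0, and the wide spread of T0 came from replicate 3. On the log2 scale it differed from T0 by 0.77 at T1 (SE 0.44, adjusted p = 0.21 in edgeR) and 0.72 at T2 (SE 0.38, adjusted p = 0.16 in edgeR), and 0.01 at T3. Without T0 replicate 3 it was 0.37 at T1 (adjusted p = 0.0066 in edgeR) and 0.32 at T2 (adjusted p = 0.031 in edgeR). Per length, the FPKM of Gabbr1 was 28.9, 17.7 and 7.66 times that of Gabbr2 in the T0 libraries, 4.12 to 5.28 times at T1, 4.51 to 6.47 times at T2, and 6.44 and 8.83 times in the T3 libraries, the latter above T0 replicate 3.

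**Figure D2:**
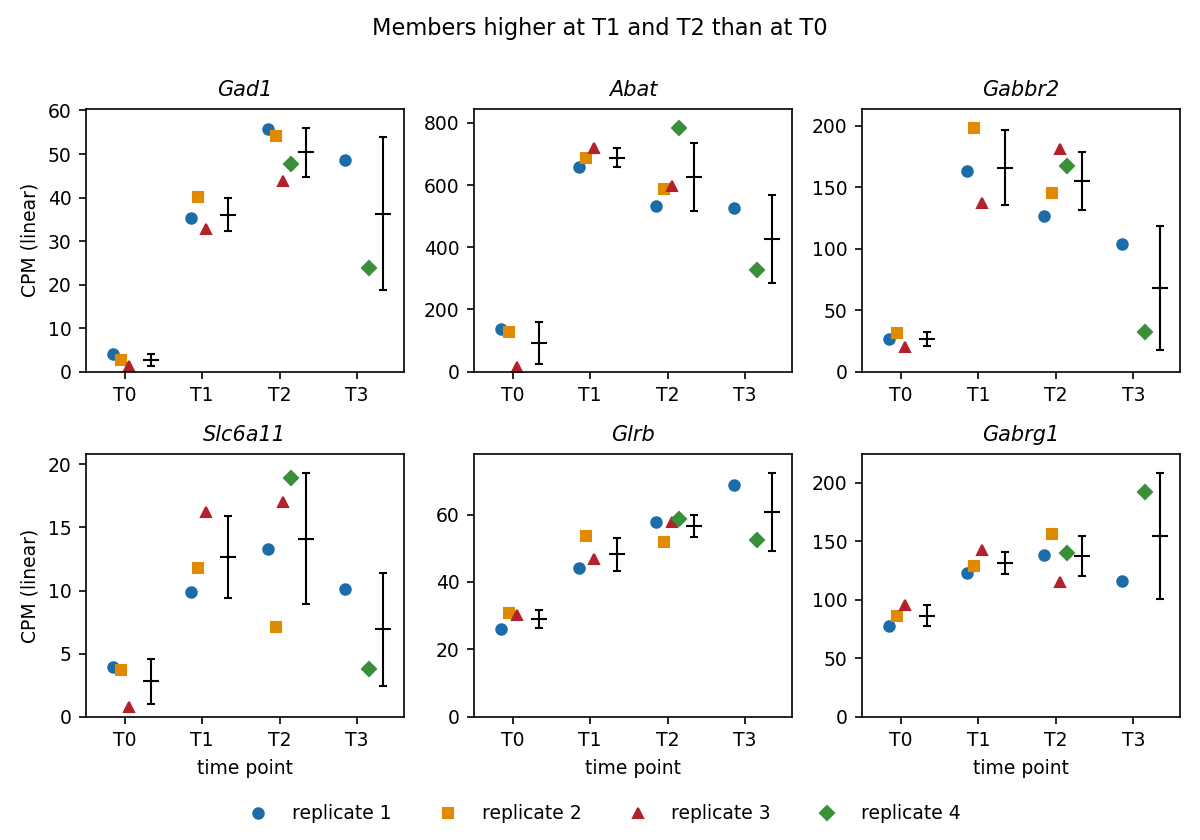
CPM (linear axis) of the 6 genes called higher at T1 and T2, by time point, with 1 symbol per library and the mean ± SD of each group beside it. T1 and T2 libraries lie above all T0 libraries in all 6 panels. In every panel but that of Gabrg1, T3 replicate 4 is the lower of the 2 T3 libraries.

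Of the 10 listed GABA-A subunits only Gabra2 and Gabrg1, neighbours in a cluster on chromosome 5, were detected at a level that could be tested. Together they took 99.2% to 99.9% of the counts on the 10 listed subunits in every library. No β subunit on the list exceeded 2 counts.

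Gabrg1, a γ subunit (71142286 to 71233856), was at 77.5, 85.8 and 95.4 CPM at T0, 123, 129 and 142 at T1, 138, 156, 115 and 140 at T2, and 116 and 192 at T3. All later libraries exceeded T0. It rose 1.52-fold at T1 (log2 fold change 0.60, SE 0.12, adjusted p = 0.012 in edgeR) and 1.61-fold at T2 (0.69, SE 0.13, adjusted p = 0.0039 in edgeR), and its log2 fold change at T3 was 0.85 (SE 0.24, adjusted p = 0.099 in edgeR). Neither call was lost when 1 library was left out, but neither was made on log2 FPKM with limma.

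Gabra2, an α subunit (71352296 to 71487088), gave a result that depended on 1 library. It was at 1.8, 3.42 and 15.9 CPM at T0, 3.1, 3.59 and 2.99 at T1, 5.54, 6.57, 4 and 6.27 at T2, and 7.12 and 15.8 at T3. T0 replicate 3 was as high as T3 replicate 4, while T0 replicates 1 and 2 were below every T2 and T3 library. With all libraries the log2 fold change was -1.13 at T1 (SE 0.75, adjusted p = 0.28 in edgeR), -0.32 at T2 (SE 0.63, adjusted p = 0.71 in edgeR) and 0.72 at T3 (SE 0.92, adjusted p = 0.65 in edgeR). Without T0 replicate 3 it was 1.11 at T2 (adjusted p = 0.012 in edgeR) and 2.13 at T3 (adjusted p = 0.048 in edgeR), the opposite direction at T2.

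Glrb encodes the β subunit of glycine receptors, which binds the scaffold gephyrin (chromosome 3, 80647521 to 80717582), and it was detected while the listed α subunits, Glra1, Glra2 and Glra3, were at or near 0. Glrb was at 26.1, 30.9 and 30.3 CPM at T0, 44, 53.6 and 46.9 at T1, 57.7, 51.7, 57.8 and 58.8 at T2, and 68.8 and 52.5 at T3. T0 replicate 3 lay between the other T0 libraries here, and all later libraries were above T0. The rise was 1.65-fold at T1 (log2 fold change 0.72, SE 0.14, adjusted p = 0.0094 in edgeR), 1.96-fold at T2 (0.97, SE 0.11, adjusted p = 0.00036 in edgeR) and 2.11-fold at T3 (1.07, SE 0.19, adjusted p = 0.04 in edgeR). The T1 and T2 calls held with any 1 library left out, although the T1 call was not made on log2 FPKM with limma. Without T0 replicate 1 or 2 the T3 call was lost, and 0.111% and 0.104% of all genes were called higher. It was also lost without either T3 library, which leaves 1 library at T3.

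Slc6a9, the glycine transporter GLYT1 of glia (chromosome 4, 117507111 to 117556092), was at 179, 161 and 113 CPM at T0, 109, 100 and 129 at T1, 111, 96.1, 132 and 107 at T2, and 132 and 131 at T3. T0 replicate 3 overlapped the later groups. On the log2 scale it differed from T0 by -0.43 at T1 (SE 0.19, adjusted p = 0.13 in edgeR) and -0.42 at T2 (SE 0.17, adjusted p = 0.08 in edgeR), and -0.59 at both without T0 replicate 3 (adjusted p = 0.0025 at both in edgeR). Its exons overlap those of B4galt2, Ccdc24 and Gm17114. Gphn, which encodes gephyrin, the scaffold of glycine and GABA-A receptors (chromosome 12, 79327642 to 79785754), was at 89.8 to 102 CPM at T0, 71.4 to 79.9 at T1, 67.8 to 80.5 at T2 and 77.4 to 84.5 at T3. Every later library was below T0, and Gphn was 1.26-fold lower at T2 (log2 fold change -0.33, SE 0.11, adjusted p = 0.032 in edgeR), a call lost in 5 of the 7 fits that left out 1 library. The 5 were those without T0 replicate 1 or 2 or T2 replicate 1, 2 or 4. At T1 the value was -0.31 (SE 0.11, adjusted p = 0.071 in edgeR), or -0.34 without T0 replicate 3 (adjusted p = 0.013 in edgeR).

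The 2 chloride cotransporters on the list act in opposite directions. Slc12a2 encodes NKCC1, which imports chloride (chromosome 18, 58038332 to 58106475), and Slc12a5 encodes KCC2, the exporter of mature neurons (chromosome 2, 164786302 to 164825228). Slc12a2 was at 185, 185 and 700 CPM at T0, 135, 158 and 162 at T1, 117, 143, 94.7 and 141 at T2, and 120 and 194 at T3. T0 replicates 1 and 2 lay above all T1 and T2 libraries by a small margin, and replicate 3 by a wide one. Slc12a2 was 2.85-fold lower at T2 (log2 fold change -1.51, SE 0.45, adjusted p = 0.027 in edgeR) and did not pass at T1 (-1.24, SE 0.52, adjusted p = 0.11 in edgeR) or T3 (-1.16, SE 0.68, adjusted p = 0.33 in edgeR). Without T0 replicate 3 the change was smaller, -0.29 at T1 (adjusted p = 0.031 in edgeR), -0.56 at T2 (adjusted p = 0.0095 in edgeR) and -0.22 at T3 (adjusted p = 0.55 in edgeR). The T2 call was lost without any 1 of the T2 libraries.

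Slc12a5 was at 10.3, 10.3 and 6.35 CPM at T0, 5.26, 3.81 and 2.68 at T1, 4.97, 7.68, 3.64 and 4.85 at T2, and 7.79 and 6.78 at T3. The T1 libraries were below all T0 libraries, and the T2 and T3 libraries overlapped T0. It was 2.31-fold lower at T1 (log2 fold change -1.21, SE 0.32, adjusted p = 0.029 in edgeR), a call lost without T0 replicate 1 or 2 or T1 replicate 2 or 3. The values at T2 and T3 were -0.75 (SE 0.29, adjusted p = 0.065 in edgeR) and -0.29. At T2 it became -0.95 without T0 replicate 3 (adjusted p = 0.0086 in edgeR) and -0.98 without T2 replicate 2 (adjusted p = 0.029 in edgeR). Per length, the FPKM of Slc12a2 was 10.1, 10.7 and 91.4 times that of Slc12a5 at T0, 13.8, 24.8 and 54.6 times at T1, 10.2 to 18.7 times at T2, while it was 11.4 and 16.9 times at T3. The importer was thus listed at over 10 times the exporter in every library. Exons of Slc12a5 overlap those of Gm11459.

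**Figure D3:**
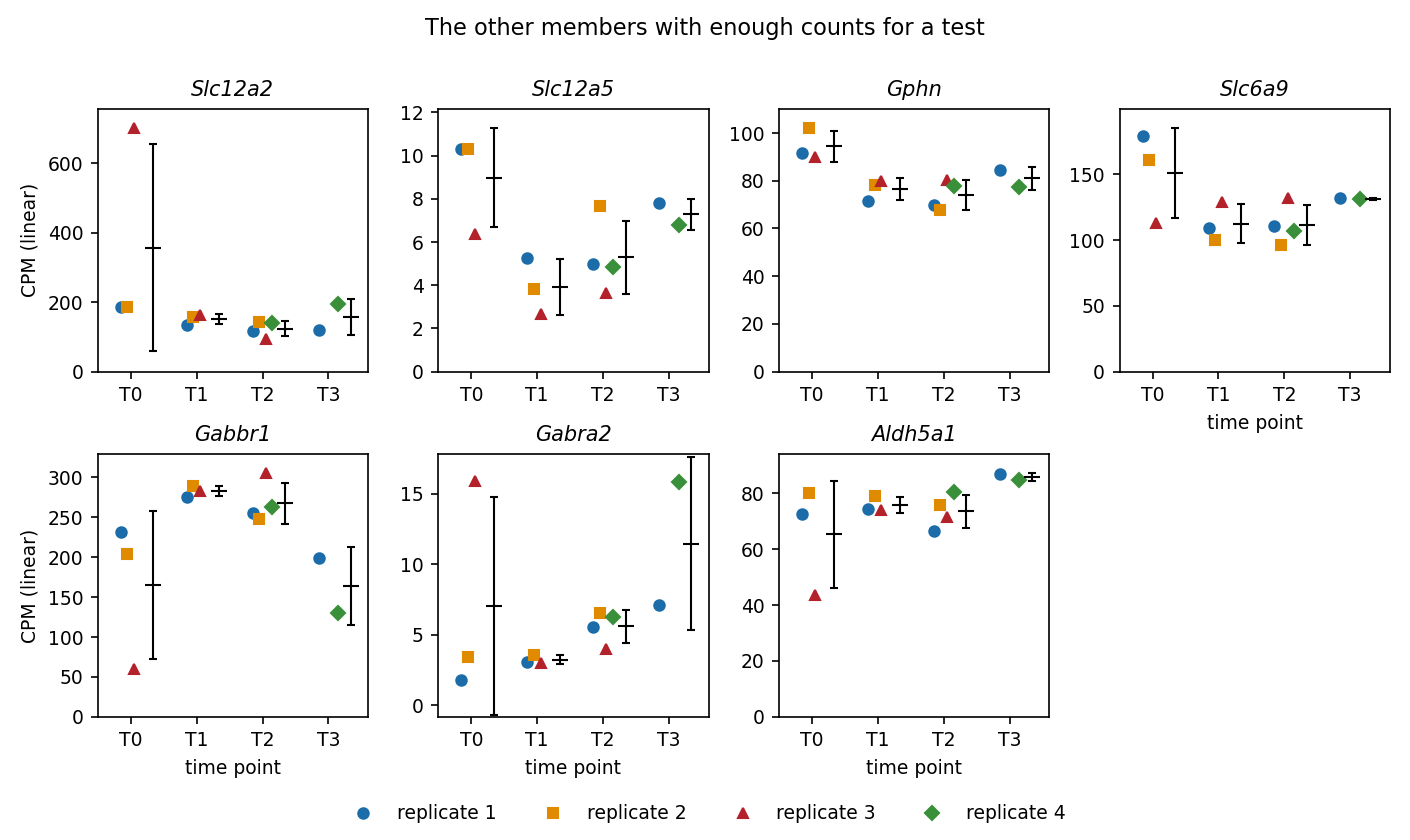
CPM (linear axis) of the other 7 tested genes by time point, with 1 symbol per library and the mean ± SD of each group beside it. In the Slc12a2 and Gabra2 panels T0 replicate 3 is the highest T0 library, at 700 and 15.9 CPM, and in the other 5 panels it is the lowest.

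Leaving out T0 replicate 3 raised the number of called genes. At T1, 7 of 13 were then higher and 4 lower, where 25.2% and 24.9% of all genes were called. At T2, 8 were higher and 4 lower, with 26.7% and 25.3% of all genes, and at T3 4 were higher and 0 lower, with 9.94% and 8.49%. The 6 genes called higher with all libraries were also called higher at T1 and T2 without T0 replicate 3. The log2 fold changes of Gabbr2 were then 2.5 and 2.42, those of Gabrg1 0.69 and 0.77, and those of Glrb 0.76 and 1.00.

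**Figure D4:**
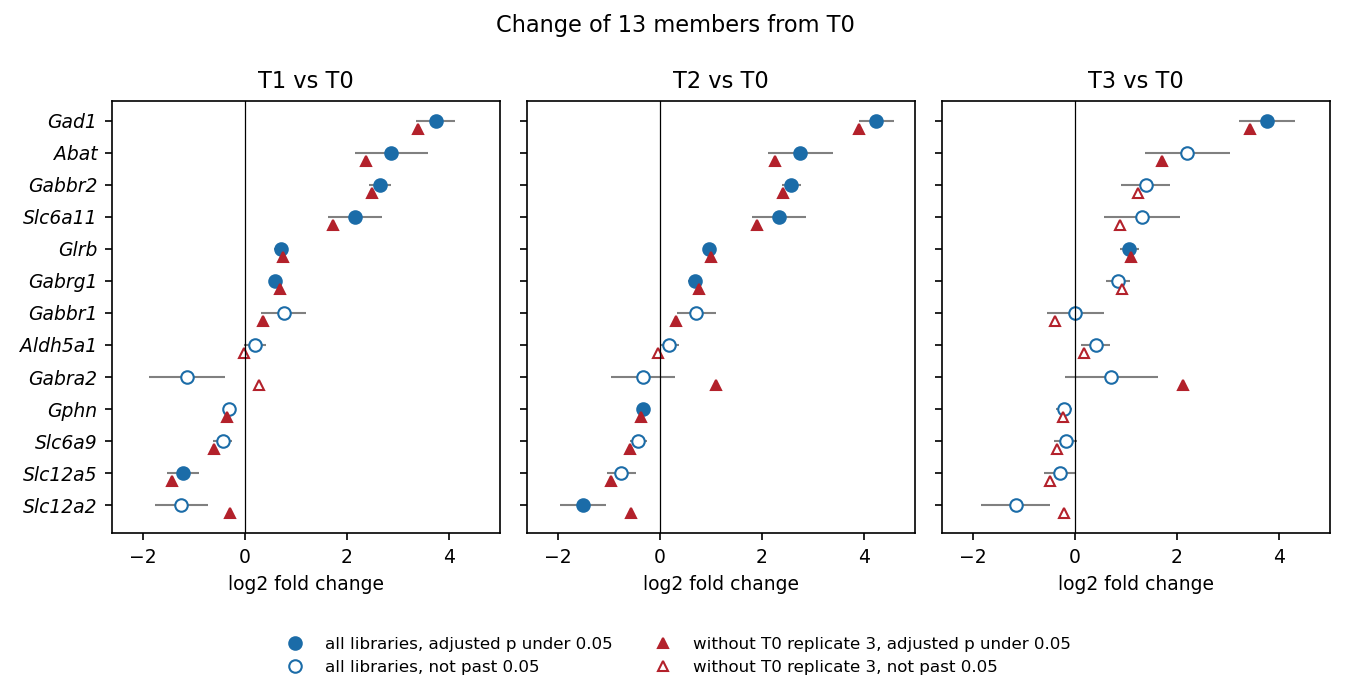
Log2 fold change from T0 of the 13 tested genes at T1, T2 and T3. Circles are the fits with all libraries, with bars of 1 SE, and triangles the fits without T0 replicate 3. Filled symbols passed an adjusted p of 0.05, and the Gabra2 triangle at T2, at 1.11, is on the other side of 0 from its circle at -0.32.

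T0 replicate 3 minus the mean of T0 replicates 1 and 2 and T3 replicate 4 minus T3 replicate 1 had the same sign in 12 of the 13 genes, Glrb being the exception, and in 70.6% of 11347 genes with at least 10 counts in every library. Abat differed by -3.1 and -0.69 on the log2 scale, Slc6a11 by -2.31 and -1.43, Gad1 by -1.49 and -1.03, and Gabbr2 by -0.53 and -1.67. Gabra2 was higher in both, by 2.68 and 1.15, and Slc12a2 by 1.92 and 0.69. The cause was not tested.

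**Figure D5:**
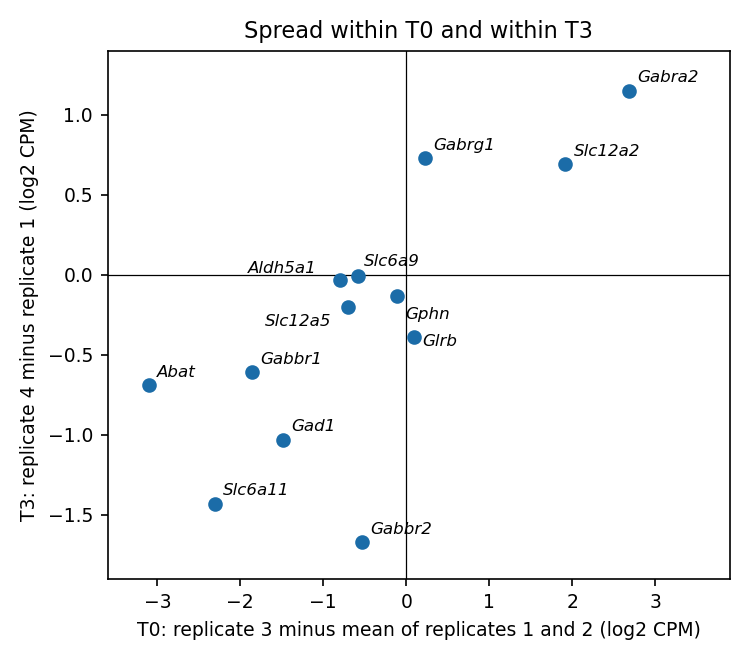
Difference within T0 (replicate 3 minus the mean of replicates 1 and 2, log2 CPM) against the difference within T3 (replicate 4 minus replicate 1, log2 CPM), 1 point for each of the 13 tested genes. Of the points, 12 lie below 0 on both axes or above 0 on both, and Glrb does not.

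The step from T1 to T2, in which medium D1 was replaced by medium B, called none of the 13 genes in either direction with edgeR. Of all 12382 genes 0.573% were called higher and 0.0565% lower. An unadjusted p under 0.05 in edgeR was found for 3 of the 13 and for 1444 of all 12382 genes. Gad1 came nearest, 1.4-fold higher at T2 (log2 fold change 0.49, SE 0.11, adjusted p = 0.094 in edgeR), with all T2 libraries above T1. With the replicate number as a block, a pairing that the labels do not state, it was 0.51 (adjusted p = 0.034 in edgeR). DESeq2 gave an adjusted p of 0.014, with 1.75% of all genes called higher. Gabra2 also had all T2 libraries above T1 (0.81, SE 0.21, adjusted p = 0.14 in edgeR). These were 2 of 13, with 6.4% of all genes having every T2 library above T1, and 0 of 13 lay below, with 5.85% of all genes.

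From T2 to T3, after longer time in medium B, none of the 13 was called with edgeR. Of 12599 genes 0.5% were called higher and 0.691% lower. An unadjusted p under 0.05 in edgeR was found for 4 of the 13 and for 2144 of all 12599 genes. In Gabbr1, Gabbr2 and Abat both T3 libraries were below all T2 libraries, with log2 fold changes of -0.71 (SE 0.17, adjusted p = 0.08 in edgeR), -1.19 (SE 0.38, adjusted p = 0.16 in edgeR) and -0.55 (SE 0.21, adjusted p = 0.23 in edgeR). DESeq2 called 1 of them, Gabbr1, with an adjusted p of 0.0037, and 2.52% of all genes as lower. In Gabra2 and Aldh5a1 both T3 libraries were above T2, at 1.02 (SE 0.33, adjusted p = 0.17 in edgeR) and 0.22 on the log2 scale. These were 3 of 13 below, with 12.1% of all genes, and 2 above, with 13.6%. Without T3 replicate 1, Gabra2 was called higher (1.5, adjusted p = 0.012 in edgeR) and Gabbr1, Gabbr2, Abat and Gad1 lower (-1.03, -2.25, -0.93 and -1.07, with adjusted p = 0.0062, 0.0017, 0.028 and 0.0094 in edgeR), a fit in which T3 replicate 4 alone stood for T3 and in which 6.46% of all genes were called higher and 4% lower.

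Other genes of the same pathways were taken from lists made by role, of which 65 of 66 were in the count tables and 46 were tested. At T1 9 were higher and 9 lower than at T0, with 15.1% and 16.8% of all genes. At T2 12 were higher and 10 lower, with 21.4% and 21.8%, and at T3 1 and 1, with 3.31% and 1.41%. The 9 higher at T1 became 2 without T1 replicate 1 or T1 replicate 2, with 6.68% and 6.47% of all genes. They became 15 without T0 replicate 3, with 25.2% of all genes. The 9 lower became 5 without T1 replicate 1 or T1 replicate 2, with 7.84% and 7.5%. At T3 0 were called without T0 replicate 1 or T0 replicate 2, with 0.111% and 0.104% of all genes higher and 0.00794% and 0.016% lower. Without T0 replicate 3, 3 were higher and 8 lower at T3, with 9.94% and 8.49%. The T3 calls were also lost without either T3 library, which leaves 1 library at T3. None of the 7 other GABA and glycine receptor subunits had enough counts. Of 17 tested genes for receptor scaffolds, assembly and trafficking, 6 were higher at T1 and 7 at T2, with 15.1% and 21.4% of all genes, and none was lower. Without T1 replicate 1 or T1 replicate 2 the 6 became 1, Gabarapl1, with 6.68% and 6.47% of all genes called higher. Shisa7, a GABA-A receptor auxiliary protein, was at 7.62 to 25.7 CPM at T0, 45.7 to 79.6 at T1 and 76.5 to 117 at T2, a log2 fold change of 1.77 (SE 0.44, adjusted p = 0.022 in edgeR) and then 2.52 (SE 0.38, adjusted p = 0.0013 in edgeR), the T1 call being lost without T1 replicate 1 or 2. Gabarapl1, of the family of GABA-A receptor-associated proteins, rose by 1.27 (SE 0.22, adjusted p = 0.007 in edgeR) and 1.53 (SE 0.21, adjusted p = 0.00073 in edgeR). Of 3 tested GABA-B auxiliary subunits and effector channels none was called.

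Among 11 tested genes of other chloride transporters, channels and their kinases, 3 were higher and 2 lower at T1, with 15.1% and 16.8% of all genes, and 4 higher and 2 lower at T2, with 21.4% and 21.8%. Wnk2, a kinase that regulates cation-chloride cotransporters, was at 21.2 to 23.8 CPM at T0, 32.8 to 38.8 at T1, 33.1 to 52.6 at T2, with 47.5 and 44.2 CPM at T3. It was higher at T1 (0.61, SE 0.13, adjusted p = 0.015 in edgeR), at T2 (0.93, SE 0.17, adjusted p = 0.003 in edgeR) and at T3 (1.02, SE 0.16, adjusted p = 0.033 in edgeR). Car2, which encodes carbonic anhydrase II, was lower at the same times, at 59.2 to 67.5 CPM at T0 and 15.5 to 30.2 at T2, with log2 fold changes of -1.27 (SE 0.13, adjusted p = 0.00095 in edgeR), -1.29 (SE 0.22, adjusted p = 0.0022 in edgeR) and -1.52 (SE 0.19, adjusted p = 0.02 in edgeR). Slc12a9, of the cation-chloride cotransporter family, was higher at T2 by 0.86 (adjusted p = 0.00032 in edgeR) and the kinase Wnk1 was lower, at -0.64 (adjusted p = 0.011 in edgeR), and both were also called at T1. The T3 calls of Wnk2 and Car2 were lost without T0 replicate 1 or 2 or either T3 library. Without T0 replicate 1 or 2, 0.111% and 0.104% of all genes were called higher at T3 and 0.00794% and 0.016% lower. The T1 call of Wnk2 was lost without T1 replicate 1 or 2, and that of Wnk1 without any 1 library other than T0 replicate 3.

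Of 7 tested genes of glycine metabolism, 4 were lower than T0 at T1, then 5 at T2 and none at T3, with 16.8%, 21.8% and 1.41% of all genes called lower, and 0 were higher. Without T1 replicate 1 or T1 replicate 2 the 4 at T1 became 2, Shmt1 and Shmt2, with 7.84% and 7.5% of all genes called lower. Shmt1, a hydroxymethyltransferase that interconverts serine and glycine in the cytosol, was at 81.7, 77 and 194 CPM at T0, 12.6 to 17.9 at T1, 17.3 to 21.6 at T2, with 27.1 and 44.8 CPM at T3. It was 7.42-fold lower at T1 (log2 fold change -2.89, SE 0.4, adjusted p = 0.0028 in edgeR) and 5.84-fold at T2 (-2.55, SE 0.32, adjusted p = 0.0005 in edgeR). Its mitochondrial counterpart Shmt2 was 3.11-fold lower at T1 (adjusted p = 0.0038 in edgeR) and 2.9-fold at T2 (adjusted p = 0.0008 in edgeR).

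Of 8 tested genes that supply glutamate, taurine or polyamines, 3 were lower at T1, with 16.8% of all genes, and 3 lower and 1 higher at T2, with 21.8% and 21.4%. Slc38a2, a glutamine transporter, was at 570 to 745 CPM at T0, 283 to 324 at T1 and 304 to 343 at T2 (log2 fold changes -1.09, SE 0.14, and -0.98, SE 0.12, adjusted p = 0.0022 and 0.00052 in edgeR). Gls2, a glutaminase, was lower at T1 (-1.39, SE 0.29, adjusted p = 0.013 in edgeR), with means of 3.13 CPM at T0 and 1.2 at T1, a call lost without any 1 of the T1 libraries. Aldh9a1, an enzyme of GABA formation from polyamines, was higher at T2 (0.43, SE 0.12, adjusted p = 0.023 in edgeR), a call lost without T0 replicate 2, T2 replicate 3 or T2 replicate 4.

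Levels between genes were compared per length with the deposited FPKM. At T0 the order of the means began with Gabbr1 at 93.8 FPKM, Slc6a9 at 74.2, Slc12a2 at 41.3, Gabrg1 at 21.3, Gphn at 21.2 and Abat at 20.3. The lowest tested genes were Gad1 at 1.7, Slc12a5 at 1.57 and Slc6a11 at 0.498 FPKM. This order was not beyond the spread of the 3 libraries, since the range was 30.5 to 138 FPKM for Gabbr1, 58.7 to 88.1 for Slc6a9, 19.5 to 84.5 for Slc12a2, 19.2 to 24.6 for Gabrg1, 20 to 21.8 for Gphn and 4.52 to 28.7 for Abat. The place of Slc12a2 came from T0 replicate 3 alone, at 84.5 FPKM against 19.9 and 19.5 in replicates 1 and 2, where it was below Abat at 27.7 and 28.7. At T2 Gabbr1 was at 140 and Abat at 110 FPKM, Gabbr2 and Gabrg1 at 27.6 and 28.1, and Gad1 at 20.9. The breakdown enzyme exceeded the synthetic enzyme in every library: the FPKM of Abat was 6.4 to 13 times that of Gad1 at T0, 6.49 to 12.1 times at T1, 4.42 to 6.69 times at T2, while it was 4.45 and 6.39 times at T3.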

How the data were processed

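RNA-seq libraries of ANS cells, 12 in all, were made by the authors from Trizol-extracted RNA with the TruSeq kit v2 and sequenced on the HiScanSQ. The submitters' processing notes name CASAVA 1.8, TopHat2 2.0.6, Bowtie 0.12.7.0, HTSeq 0.6.0, DESeq2 1.0.0 and the mm9 build. The deposited counts are raw reads per gene, over 22609 genes. A further 5 entries name no gene and entered neither library sizes nor tests. They held 13.3% to 24.1% of unique reads as outside genes, 0.68% to 0.903% as ambiguous, and 26% to 39% of all alignments as multiple, so genes with near-identical copies are undercounted. The FPKM values deposited by the authors cover 34993 genes. Their tool and the strand setting of the counting are not given in the sources used here.

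Groups came from the labels. The replicate label of T3 is 4, while the column name for that library also holds another number. The main text and the labels differ on the number of T2 replicas and on the days of T3, and the labels were used. Members and gene lists were chosen with earlier results of these data known. Every member was named with its values, those called in at least 1 comparison in every library where the text turns on them. Of other pathway genes, up to 2 of the largest rises and 2 of the largest falls past the threshold per list and comparison with T0, with a mean of at least 1 CPM, were named.

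Counts were scaled by the trimmed mean of M-values, filtered by filterByExpr and tested with the quasi-likelihood test of edgeR 4.0.16 in R 4.3.3, in 5 fits of 2 groups each, with Benjamini-Hochberg adjustment over all genes tested and a threshold of 0.05. CPM are scaled by the same factors. Alternatives were DESeq2 1.42.0, upper-quartile factors, library size only, no filter, at least 10 counts in every library, 1 fit of all 12 libraries, each library left out in turn, the replicate number as a block, libraries numbered 1 and 2 only, and limma 3.58.1 on log2(FPKM + 0.1) and log2(FPKM + 1). A fit of 11 libraries, without T0 replicate 3, and a fit without the block on the same libraries were added after seeing the data. Replicate numbers were checked by the correlation of deviations from group means over 12952 genes. For T1 and T2 the same-numbered pairs gave 0.199, 0.341 and 0.166, each the highest for its T1 library among T2 replicates 1 to 3. T1 replicate 3 correlated more, at 0.37, with T2 replicate 4, a number that T1 lacks. The numbers were thus shown to pair these groups only in part, a sign taken from the data and not from the labels. For T0 and T1 they gave -0.0183, 0.121 and 0.0658, and for T0 and T2 -0.0641, 0.0154 and -0.152.

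On simulated counts with 200 changed genes, the T1 fit recovered 49% of genes changed by 1 on the log2 scale and 90% of those changed by 2 (12237 genes), the T2 fit 56% and 95% (12465 genes), and the T3 fit 3% and 76% (12542 genes). Positions are 1-based in mm9, from the FPKM table or, for Gad1, GENCODE vM1 (NCBIM37). Promoters are from RefSeq.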

Additional observations from a re-analysis of the deposited data

Results flagged for a closer look

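Within the groups of 4 libraries, Glrb at T2 was flagged because 1 library lay apart from the rest. T2 replicate 2 had 51.7 CPM, while the other 3 T2 libraries had 57.7 to 58.8 CPM. The gap was 0.849 of the range, above the critical value of Dixon's test for 4 samples. This was 1 flag among 13 genes tested in this way, and chance flags about 1 in 20. The value lay above all T0 libraries, and Glrb was called higher at T2 with this library left out.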

How the results depend on the processing

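With 1 library left out in turn, the genes called lower ranged from 0 to 4 of 13 at T1, with 7.5% to 24.9% of all genes, and from 0 to 4 at T2, with 16.6% to 25.3%. When 1 T0 library was left out, 0 to 4 of the 13 were higher at T3, with 0.104% to 9.94%. In the same fits 0 to 3 of the other pathway genes were higher and 0 to 8 lower, with 0.00794% to 8.49% of all genes lower. With any 1 library left out, the other pathway genes called higher ranged from 2 to 15 at T1, with 6.47% to 25.2% of all genes. Those called lower ranged from 5 to 12 at T1, with 7.5% to 24.9%. With any 1 T2 library left out, none of the 13 or of the other pathway genes was called from T2 to T3. In those fits 0.00798% to 0.0399% of all genes were called higher and 0% to 0.0956% lower. Leaving out a T3 library leaves 1 library at T3, and the calls of the 13 without T3 replicate 1 are given above. Where 1 library stood for its group, it was assumed to vary like the other group.

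With DESeq2, 3 of the 13 were lower at T1 and 5 higher at T3, with 18% and 7.94% of all genes. From T1 to T2 1 was higher and from T2 to T3 1 lower, with 1.75% and 2.52%. Of the other pathway genes 5 were higher and 6 lower at T3, with 7.94% and 6.88%. From T1 to T2 1 of these was higher and 1 lower, with 1.75% and 0.522%, and from T2 to T3 1 was higher, with 3.29%. With 1 fit of all 12 libraries, 3 of the 13 were lower at T1, 4 lower at T2 and 5 higher at T3 (21.2%, 24.8% and 15.4% of all genes). Of the others 10 were higher and 8 lower at T3, with 15.4% and 14.4%. With the added fit of 11 libraries, 3 of the 13 were lower at T1 and 4 at T2, with 20.5% and 23.2% of all genes. At T3 6 were higher, with 17.9%, and from T2 to T3 1 was lower, with 2.96%. Of the others 11 were higher and 10 lower at T3, with 17.9% and 16.6%, and 1 higher from T2 to T3, with 4.04%. With only the libraries numbered 1 and 2, 4 of the 13 were lower at T1 and 4 at T2 (29.9% and 27.4% of all genes). Of the others 17 were higher and 14 lower at T1, with 29.9% of all genes in each direction. From T1 to T2 1 of the others was higher, with 0.748%. Upper-quartile factors and library size only each left 1 lower at T2. Without a filter, 2 were lower from T2 to T3, and of the others 3 were higher and 2 lower at T3 and 1 higher from T2 to T3. At least 10 counts in every library left 1 higher at T3. On log2 FPKM with limma and either pseudocount, 0 were lower at T1 and 0 higher at T3, and of the others 4 were higher at T1 and 0 at T3, with 0 lower at T3 at a pseudocount of 1. For the changed factors, the changed filters and limma the share of all genes was not counted, so these numbers stand without it.

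The replicate block left 0 of the 13 lower at T2, with 12.6% of all genes, and the same libraries without the block also left 0. From T1 to T2 the block gave 1 higher and 2 of the other pathway genes, with 1.32% of all genes. It left Slc6a11 uncalled at T1 and T2, groups in which the numbers were not shown to pair the samples with T0, and it changed no other call of a member from T0 except Gphn and Slc12a2 at T2. Of the named pathway genes, Gls2 and Aldh9a1 lost their T2 calls under it. For T3 against T0 alone, no paired analysis was possible because the groups share only 1 replicate number.

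With 1 library left out the T2 change of Gabra2 ranged from -0.77 to 1.11. It turned from lower to higher without T0 replicate 3 (1.11), with the libraries numbered 1 and 2 (1.21) and in the fit of 11 libraries (1.11). Of the values of single genes under the alternatives, 1382 kept their side of the threshold, 90 lost it, 50 gained it and 3 reversed. The cause of these changes was not tested.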
